A study of Rattus norvegicus with 20 samples.

Results

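The immediate early genes Fos, Fosb, Junb, Egr1, Egr2, Egr4, Arc, Nr4a1, Npas4 and Ier2 were described in the arcuate nucleus of female Sprague-Dawley rats on postnatal day 15. The 10 genes were matched by symbol to 11 of the 30367 probes of a rat expression array, with 2 probes for Egr1 and 1 for each other gene. A list of immediate early genes that was higher in rats with spasms had been seen in earlier results of these data. The genes were thus chosen by the measured log2 difference between rats with and without spasms (BYS minus BNS), whose values are given here as a description, with no test.

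There were 5 conditions with 4 rats each. The SNS rats were born to mothers injected with saline, had no spasms and received saline, and all other rats were born to mothers given betamethasone (2 injections of 0.4 mg/kg on gestational day 15). The BNS rats had no spasms and received saline. In BYS, BYA and BYP rats, spasms were triggered with NMDA on postnatal days 12, 13 and 15, with saline (BYS), the hormone ACTH (BYA) or PMX53, an antagonist of the complement receptor C5ar1 (BYP), given on postnatal days 13, 14 and 15 per the labels and from day 12 on per the methods of the study. How long after the last NMDA injection the tissue was taken is not given in the sources used here.

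Immediate early genes are transcribed within minutes of a strong stimulus, without new protein synthesis, because the factors that switch them on (SRF with its ELK partners, and CREB) are already present in the cell. Calcium entry through NMDA receptors and voltage-gated channels, growth factors and inflammatory signals all reach them through MAP kinases and CaM kinases. In brain tissue their transcripts are widely read as a trace of recent neuronal firing, and glia and endothelium also induce them. Most members encode transcription factors, and their messages are short-lived, so that levels depend on the time since the stimulus.

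Levels are log2 intensities after background correction and quantile normalization. A probe entered the analysis if some condition had all 4 rats with a share of 0.5 or more of the spots flagged well above background, which left 17086 genes and 9 of the 10 members. Each sample was 1 channel of a two-colour array, and 9 of the 11 arrays held 2 rats of the same condition, so replicates 1 and 2 shared an array, as did 3 and 4, in SNS, BNS, BYS and BYP. Each condition lay on 1 slide of its own, except that BYA replicate 3 was on a separate slide, so slide and condition cannot be told apart. Signal over background was 14.0 to 19.9 in the BNS and BYS rats and 5.42 to 11.4 in the SNS, BYA and BYP rats. For BYA replicate 3 the labelled dye and the raw data name disagree about the channel, and the other channel of that array holds a male SNS rat of another series. Which of these animals the channel holds is not certain, so the counts of members called in comparisons with BYA are given with and without this sample. All 10 marker genes of arcuate neurons were measured, among them Pomc and Agrp, and their mean log2 level lay between 11.55 and 12.41 over the 20 samples. Of 6 pituitary markers named on the array 2 passed the filter (Cga and Lhb), and the probe of Prl was well above background in 0 of 20 samples.

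Promoters of 8 members are in the RefSeq table used here (GRCr8), and Fos and Arc have no entry in it. Those of Egr2, Nr4a1 and Ier2 are shown because they hold the binding motifs for which this class of genes is known. They cover the 250 bases before the annotated start of each gene, from chr20:21054442-21054691 on the minus strand for Egr2, chr7:134259888-134260137 on the plus strand for Nr4a1 and chr19:40399123-40399372 on the plus strand for Ier2. Capitals mark a CArG box (the site of SRF), the CRE TGACGTCA or its core TGACG (the site of CREB), and the EGR site GCGNGGGCG, on either strand.
Egr2: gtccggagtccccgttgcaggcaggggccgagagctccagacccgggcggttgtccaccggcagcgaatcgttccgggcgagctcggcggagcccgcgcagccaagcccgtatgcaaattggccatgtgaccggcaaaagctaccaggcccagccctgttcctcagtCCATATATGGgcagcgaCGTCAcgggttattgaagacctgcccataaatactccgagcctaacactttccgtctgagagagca
Nr4a1: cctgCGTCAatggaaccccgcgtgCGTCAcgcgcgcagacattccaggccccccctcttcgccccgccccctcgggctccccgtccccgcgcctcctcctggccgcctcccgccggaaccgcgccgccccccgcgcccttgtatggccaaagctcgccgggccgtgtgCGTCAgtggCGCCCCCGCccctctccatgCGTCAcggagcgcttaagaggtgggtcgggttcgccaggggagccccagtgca
Ier2: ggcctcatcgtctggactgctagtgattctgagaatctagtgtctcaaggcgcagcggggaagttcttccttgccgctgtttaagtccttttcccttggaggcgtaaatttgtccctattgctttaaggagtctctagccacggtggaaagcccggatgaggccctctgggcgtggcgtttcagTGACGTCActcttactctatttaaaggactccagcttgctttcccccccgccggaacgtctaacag

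Over the same 250 bases of all 33469 promoters in the table, a CArG box was found in 1.5% and in 2 of the 8 members, Egr1 and Egr2. The whole CRE was found in 1.59% of promoters and in 1 member, Ier2, and each whole CRE also holds the core on both strands. The core was found in 18.2% of promoters and in 6 members, Junb, Egr1, Egr2, Egr4, Nr4a1 and Ier2. The EGR site was found in 4.29% of promoters and in 1 member, Nr4a1, 73 to 65 bases before the start. The AP-1 site TGANTCA (6.34% of promoters) and the NBRE AAAGGTCA (1.24% of promoters), a site of Nr4a1, were found in 0 of the 8 members. A match of letters is a description and not a measured binding site.

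Fos, the partner of Jun proteins in the AP-1 complex, was low in all 8 controls, and the 4 BYS rats fell into a low and a high pair. In SNS rats its log2 level was 8.41, 8.98, 9.14 and 9.44 in replicates 1 to 4, and in BNS rats 8.63, 8.79, 8.65 and 9.41. In BYS rats it was 8.86, 9.16, 11.04 and 10.47. Replicates 1 and 2 of BYS thus lay within the range of the controls, while replicates 3 and 4, which shared the other array, lay above every control. In BYA rats the level was 10.67, 10.47, 8.76 and 11.03, with the doubted replicate 3 inside the range of the controls. In BYP rats it was 10.89, 10.51, 10.60 and 10.33, and all 4 lay above all 8 controls. Ordered by mean over all 4 rats of each condition, Fos was 10.58 in BYP, 10.23 in BYA, 9.88 in BYS, 8.99 in SNS and 8.87 in BNS. No neighbouring pair in this order differed beyond its spread (limma, adjusted p from 0.142 to 0.892). Without BYA replicate 3 the BYA mean lay above the BYP mean (BYP minus BYA, −0.12).

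Junb, a Jun protein that pairs with Fos, followed Fos closely. Its log2 level was 10.51, 10.84, 11.07 and 11.27 in SNS and 10.65, 10.98, 10.80 and 11.45 in BNS. In BYS it was 10.66, 10.62, 12.85 and 12.40, with the same pair of rats high as for Fos, and replicates 1 and 2 within the range of the controls. In BYA it was 12.66, 12.03, 10.95 and 13.10, and in BYP 12.53, 12.64, 13.20 and 12.13. All 4 BYP rats lay above all 8 controls.

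Fosb, a Fos relative whose truncated product builds up with repeated stimulation, did not share this pattern. Its log2 level ranged from 9.22 to 9.69 in SNS and from 8.72 to 10.02 in BNS. In BYS it was 9.62, 9.26, 9.38 and 10.14, so that the pair of rats high for Fos did not stand apart. In BYA it was 10.77, 10.24, 9.32 and 10.28, and the 3 rats other than replicate 3 lay above every control. In BYP it ranged only from 9.19 to 9.42, inside the range of the controls. The array has 1 probe with a single spot for Fosb, and which of its transcripts the probe reads was not determined here.

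**Figure D1:**
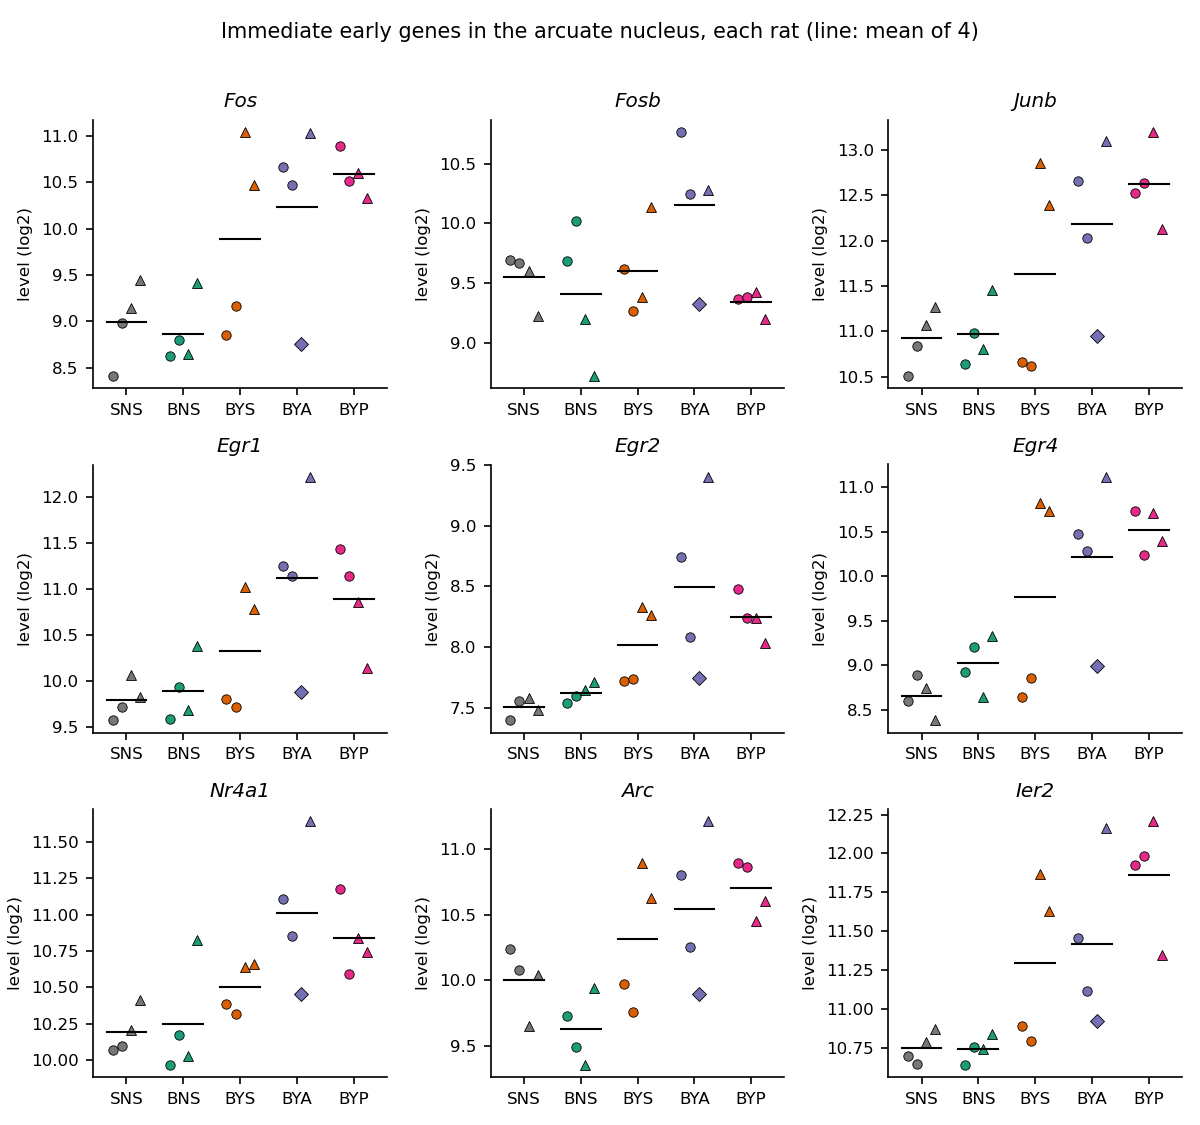
Log2 level of the 9 measured immediate early genes in each rat, by condition (x axis), with the mean of 4 rats as a line. Circles are replicates 1 and 2, triangles replicates 3 and 4, and the diamond BYA replicate 3. For Fos and Junb, BYS replicates 3 and 4 sit with the BYP rats and replicates 1 and 2 with the controls.

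The zinc finger factors of the Egr family showed the same split of the BYS rats as Fos. The Egr4 level was 8.60, 8.89, 8.74 and 8.38 in SNS, 8.93, 9.20, 8.64 and 9.33 in BNS and 8.65, 8.85, 10.82 and 10.74 in BYS. It was 10.47, 10.28, 8.99 and 11.12 in BYA and 10.74, 10.24, 10.71 and 10.40 in BYP. All 4 BYP rats lay above all 8 controls. Egr1, the most widely used activity marker of the family, ranged from 9.57 to 10.07 in SNS and from 9.58 to 10.37 in BNS. Its level was 9.80, 9.71, 11.01 and 10.78 in BYS, 11.24, 11.14, 9.88 and 12.22 in BYA and 11.44, 11.14, 10.86 and 10.14 in BYP, and BYP replicate 4 lay below the highest BNS rat. The 2 probes of Egr1 gave the same direction in all 10 comparisons, with differences of 1.18 and 1.01 between BYP and SNS on the log2 scale.

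Egr2 was dim: its probe was well above background in 0 SNS, 2 BNS, 4 BYS, 3 BYA and 4 BYP rats, and it passed the filter through BYS and BYP, where it was high. Its level was 7.54 to 7.71 in BNS and 7.72, 7.74, 8.33 and 8.27 in BYS. BYA rats were at 8.74, 8.08, 7.74 and 9.40, and BYP rats ranged from 8.04 to 8.48. Since the SNS rats give only a bound, Egr2 was at least 1.98-fold higher in BYA (at least 2.36-fold without BYA replicate 3) and at least 1.68-fold higher in BYP than in SNS. Here the bound is the mean level of the probe itself in SNS, which in every SNS rat was the higher of its own signal and the lowest signal among probes well above background.

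Among the other members, Nr4a1, an orphan nuclear receptor, differed less between the pairs of BYS rats, at 10.38, 10.32, 10.64 and 10.66. It ranged from 10.07 to 10.41 in SNS and from 9.96 to 10.82 in BNS, where replicate 4 was the highest. Its level was 11.11, 10.85, 10.45 and 11.64 in BYA, and 10.59 to 11.18 in BYP.

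Arc encodes a protein of the postsynaptic density that moves AMPA receptors off the membrane. Its level was 10.24, 10.08, 9.66 and 10.04 in SNS and 9.73, 9.49, 9.36 and 9.94 in BNS. It was 9.97, 9.76, 10.89 and 10.63 in BYS, 10.80, 10.26, 9.90 and 11.21 in BYA and 10.90, 10.86, 10.45 and 10.61 in BYP. All BYP rats lay above all controls.

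Ier2, a small nuclear protein, ranged from 10.65 to 10.88 in SNS and from 10.64 to 10.84 in BNS. Its level was 10.89, 10.80, 11.87 and 11.63 in BYS, 11.46, 11.12, 10.92 and 12.17 in BYA and 11.93, 11.98, 12.21 and 11.35 in BYP. Every BYA and BYP rat, BYA replicate 3 included, lay above every control.

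Npas4, a neuron-specific activity-dependent factor, did not pass the filter. Its probe was well above background in 2 BNS rats (8.60 and 7.87 on the log2 scale) and 1 BYA rat (7.75), and in 0 of the 12 SNS, BYS and BYP rats, whose values lay between 7.05 and 7.73. No level is given for Npas4 in these conditions, and it enters no count below.

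The probes of Ier2, Egr1, Arc, Egr2 and Nr4a1 are each spotted 10 times on an array, which shows how far the readings of 1 probe scatter. The median SD over these spots within a sample was 0.255 for Ier2, 0.307 for Egr1, 0.210 for Arc, 0.0929 for Egr2 and 0.262 for Nr4a1 on the log2 scale. The second probe of Egr1 has a single spot. Fos, Fosb, Junb, Egr4 and Npas4 have a single spot per array.

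The split within BYS followed the arrays. The mean of BYS replicates 3 and 4 minus the mean of replicates 1 and 2 was 1.75 for Fos, 1.98 for Junb, 2.03 for Egr4, 1.14 for Egr1, 0.91 for Ier2, 0.89 for Arc, 0.57 for Egr2, 0.32 for Fosb and 0.30 for Nr4a1. The median of the absolute difference was 0.906 over the 9 members and 0.127 over all genes. Rats on the same array differed from each other by a median of 0.166 for the members and 0.186 for all genes in BYS. In SNS, BNS and BYP the median difference of the members between arrays was 0.273, 0.273 and 0.177, against 0.201, 0.111 and 0.153 for all genes. In BYS the members thus differed more between arrays than the median gene did, while rats of 1 array differed about as much as for the median gene. In BNS and BYP, rats of 1 array differed by a median of 0.466 and 0.340 for the members, against 0.139 and 0.199 for all genes. Between the same pairs of BYS rats, the mean log2 level of the 2 pituitary markers measured differed by 0.71. That of the other marker lists differed by 0.48 for ventromedial hypothalamus, 0.40 for red blood cells, 0.32 for astrocytes and 0.29 for arcuate neurons. The difference was 0.22 for microglia, 0.18 for ependyma and tanycytes, 0.11 for thalamus, 0.02 for endothelium, −0.29 for choroid plexus and −0.47 for oligodendrocytes. The part of these cells in the split was not tested. In bulk tissue, fewer cells of a type and less RNA per cell cannot be told apart.

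**Figure D2:**
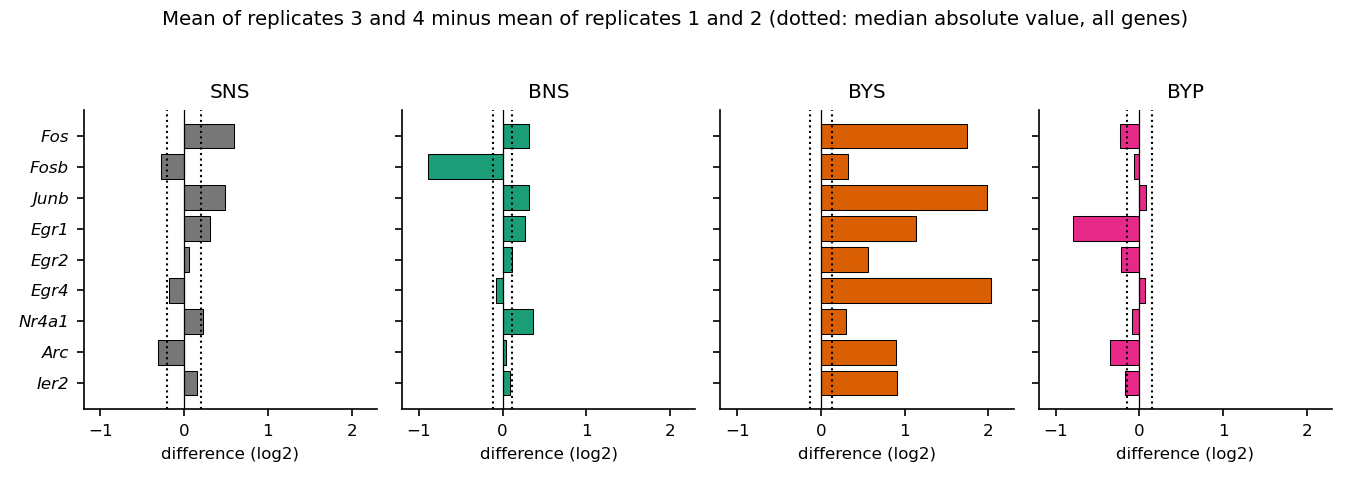
Mean of replicates 3 and 4 minus mean of replicates 1 and 2 for each member (log2 scale), in the 4 conditions whose pairs lie on separate arrays. Dotted lines mark the median absolute difference of all genes. The bars of BYS reach 2.03 (Egr4), and those of the other conditions stay below 0.9 in size.

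Between BYS and BNS, the comparison that chose the genes, all 9 measured members had a higher mean with spasms. The log2 difference (± SE) was 1.02 ± 0.44 for Fos, 0.74 ± 0.44 for Egr4, 0.68 ± 0.26 for Arc, 0.66 ± 0.47 for Junb, 0.55 ± 0.25 for Ier2, 0.43 ± 0.39 for Egr1, 0.39 ± 0.25 for Egr2, 0.25 ± 0.21 for Nr4a1 and 0.19 ± 0.28 for Fosb (n = 4 rats each). With scaling to the 75th percentile the difference of Egr2 was −0.50 and that of Fosb −0.19, with median scaling that of Egr2 was −0.11, and without BNS replicate 4 that of Fosb was −0.05. The median was 0.55, against 0.00083 for all genes. Limma called 0.0234% of all 17086 genes higher at an adjusted p under 0.05, and 0 of the members. All 4 BYS values lay above all 4 BNS values in 2.54% of all genes and in 1 member, Egr2. These shares describe the choice and are read no further.

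The contrast of prenatal treatment alone, BNS minus SNS, uses the BNS samples of the choosing comparison. Limma called 0 members, with 0 of 9 at an unadjusted p under 0.05, whereas 15.1% of all genes were called higher. The methods' test with unequal variances gave 0 at its own threshold of p under 0.05. The study also required the fold change to pass a cut-off set for each gene, which was not applied here or below. All 4 BNS values lay above all 4 SNS values in 14.8% of genes and in 0 members. The differences ran from −0.37 for Arc to 0.37 for Egr4 with a median of 0.05, and the adjusted p from 0.288 to 0.982. The 95% interval was −1.06 to 0.81 for Fos and −0.54 to 0.52 for Ier2, so smaller shifts were not detectable.

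Rats with spasms and PMX53 had higher levels than saline controls in 7 of the 9 measured members by limma (BYP minus SNS). Neither mean holds a sample of the choosing comparison. The error of the test came from the fit of all 20 samples, the choosing ones included. In this contrast 15.4% of all genes were called higher, since SNS differed from every other condition across the transcriptome, and SNS was on a slide of its own. The log2 difference was 1.87 ± 0.44 (SE) for Egr4 (3.66-fold, adjusted p = 0.00452), 1.70 ± 0.47 for Junb (3.25-fold, adjusted p = 0.0117) and 1.59 ± 0.44 for Fos (3.01-fold, adjusted p = 0.0128), with n = 4 rats each. Ier2 was 2.16-fold higher (adjusted p = 0.0037), Egr1 2.14-fold (adjusted p = 0.0421) and Nr4a1 1.56-fold (adjusted p = 0.029). The seventh was Egr2, which had entered the analysis through BYS and BYP, where it was high, so its call is no support for a difference. Arc (1.62-fold, adjusted p = 0.052) and Fosb (0.87-fold, adjusted p = 0.604) were not called. In 8 of the 9, Fosb being the exception, all 4 BYP rats lay above all 4 SNS rats, as in 12.8% of all genes. Egr2 is among these 8, and the same limit holds for it here. With median scaling of the channels 2 members were called, and 4 when arrays entered as a random block. Without SNS replicate 2, BYP replicate 1 or BYP replicate 3, 4 members were called.

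In BYA minus SNS too, neither mean holds a choosing sample, while the error came from the fit of all 20 samples. Against saline controls, rats with spasms and ACTH had higher levels in 6 members, where 15.8% of all genes were called higher. These were Egr4 (2.96-fold, adjusted p = 0.0126), Egr1 (log2 difference 1.32, adjusted p = 0.0159), Junb (2.39-fold, adjusted p = 0.048), Fos (2.36-fold, adjusted p = 0.0414), Nr4a1 (1.76-fold, adjusted p = 0.0071) and Egr2, for which the same limit holds. All 4 BYA rats lay above all 4 SNS rats in 4 members, Egr2, Egr4, Nr4a1 and Ier2, and in 13.2% of genes. Without BYA replicate 3 all 9 were called, Fosb among them (1.87-fold, adjusted p = 0.0117), beside 15.6% of all genes, and Fos was 3.27-fold higher. Without BYA replicate 4 the count fell to 3 members, and by the methods' test at its own threshold to 2.

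Against BNS, the control that shares the prenatal betamethasone, 8 of the 9 members had a higher mean in BYP, and fewer passed the test than against SNS. BNS is part of the choosing comparison. Limma called Ier2 (1.12 ± 0.25, 2.18-fold, adjusted p = 0.0364) and Arc (1.07 ± 0.26, 2.10-fold, adjusted p = 0.0472), 2 of 9, where 0.65% of all genes were called higher. The differences of Fos (1.71 ± 0.44, adjusted p = 0.0582), Junb (1.65 ± 0.47, adjusted p = 0.0775) and Egr4 (2.83-fold, adjusted p = 0.0859) were larger with a larger error and did not pass. In 6 members all 4 BYP rats lay above all 4 BNS rats, as in 6.22% of all genes, with Egr1, Nr4a1 and Fosb overlapping. Egr2 is among these 6 and entered the analysis through BYS and BYP, where it was high, so it adds no support. Both calls were lost when arrays entered as a random block, with median or 75th percentile scaling of the channels, and without any 1 of the 4 BNS rats or without BYP replicate 1, 2 or 3. With any 1 SNS rat, BYS replicate 1, BYA replicate 2 or BYP replicate 4 left out, 1 member was called.

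Between BYA and BNS, 0 members were called by limma, although all 9 were higher and all 9 had an unadjusted p under 0.05, and the methods' test gave 1 at its own threshold. Here 0.0819% of all genes were called higher. All 4 BYA rats lay above all 4 BNS rats in 2 members, Egr2 and Ier2, and in 4.59% of genes. The log2 differences ran from 0.67 for Ier2 to 1.36 for Fos, and the adjusted p from 0.154 to 0.283. Without BYA replicate 3, limma called 5 members beside 0.433% of all genes higher. These were Egr2, with the limit given above, Egr1 (1.64, adjusted p = 0.0357), Fos (1.84, adjusted p = 0.0373), Nr4a1 (0.94, adjusted p = 0.039) and Arc (1.12, adjusted p = 0.0475).

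**Figure D3:**
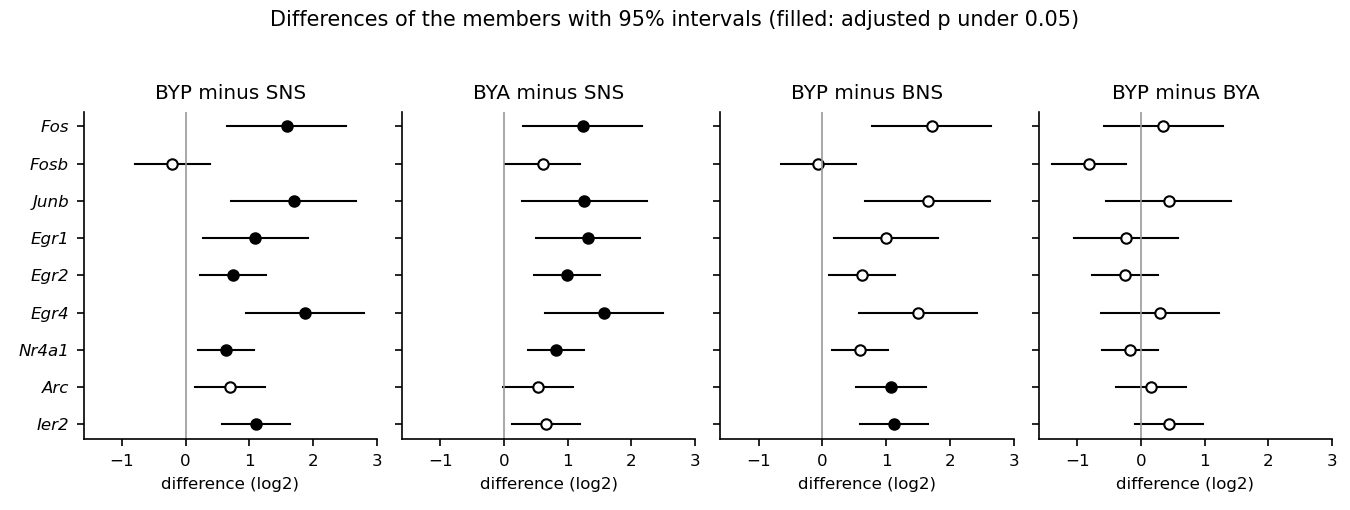
Log2 differences of the 9 members in 4 comparisons, with 95% intervals from limma's fit. Filled points have an adjusted p under 0.05 over all genes, which holds for 7 members in BYP minus SNS, 6 in BYA minus SNS, 2 in BYP minus BNS and 0 in BYP minus BYA.

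Against BYS, the saline-treated rats with spasms, no member was called lower with either treatment. Of all 17086 genes, 0 were called lower in BYA and 4 in BYP. In BYA minus BYS all 9 differences were above 0, from 0.12 for Ier2 to 0.79 for Egr1, limma called 0 members (1 at an unadjusted p under 0.05, 0 by the methods' test) and 0% of all genes were called higher, with 1379 genes at an unadjusted p under 0.05. All 4 BYA rats lay above all 4 BYS rats in 2.65% of genes and in 0 members. The interval of the difference reached from −0.58 to 1.28 for Fos and from −0.41 to 0.65 for Ier2. Without BYA replicate 3 the count of members called stayed 0, beside 0.0527% of all genes.

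In BYP minus BYS 8 of 9 differences were above 0, from 0.23 for Egr2 to 0.99 for Junb, with Fosb at −0.26, and 0.0117% of all genes were called higher. Limma called 0 members, with 2 at an unadjusted p under 0.05 (Ier2 and Junb) and 0 by the methods' test. All 4 BYP rats lay above all 4 BYS rats in 2.53% of genes and in 0 members. Both contrasts share the BYS samples of the choosing comparison, and the Fos interval was −0.23 to 1.63 for PMX53.

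PMX53 and ACTH were compared directly in BYP minus BYA. Neither mean holds a choosing sample, while the error came from the fit of all 20 samples. Limma called 0 members (1 at an unadjusted p under 0.05, 0 by the methods' test), and 0.0351% of all genes were called higher. Junb, Ier2, Fos, Egr4 and Arc were above 0 (0.16 to 0.45) and Egr1, Egr2, Nr4a1 and Fosb below. Without BYA replicate 3 the directions of Fos (−0.12), Egr4 (−0.09) and Arc (−0.05) turned. The lowest was Fosb at −0.81 ± 0.28 (adjusted p = 0.208), with an interval from −1.40 to −0.23. Without BYA replicate 3, Fosb was called lower in BYP than in BYA (0.464-fold, adjusted p = 0.0368), and it was the only member called, beside 0.521% of all genes called lower. With all 20 rats, the intervals of the others held both directions, for example −0.58 to 1.28 for Fos and −1.04 to 0.59 for Egr1.

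Against SNS, BYS gave 0 members called by limma, with 2 at an unadjusted p under 0.05 (Egr4 and Ier2) and 2 by the methods' test, while 14.5% of all genes were called higher. All 4 BYS rats lay above all 4 SNS rats in 1 member, Egr2, which entered the analysis through BYS and BYP, and in 12.9% of genes. The largest difference was that of Egr4, 1.11 ± 0.44 (limma, adjusted p = 0.0686). Without BYS replicate 1 or 2, or BYA replicate 3 or 4, 1 member was called. BYS belongs to the choosing comparison.

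Within conditions the members other than Fosb varied together from rat to rat. After the mean of each condition and the dye effect had been removed, the deviation of Fos over the 20 rats was correlated with that of each other member. This removes the difference in means that chose the genes, but the spread within BYS and BNS remains. The correlations thus still draw on the choosing samples and are not independent of the choice. Pearson's r was 0.94 for Junb, 0.90 for Egr4, 0.89 for Egr1, 0.82 for Ier2, 0.79 for Egr2, 0.77 for Arc and 0.74 for Nr4a1. Spearman's rho was 0.91, 0.83, 0.88, 0.80, 0.88, 0.65 and 0.81 in the same order. Each of these 7 passed a two-sided permutation test within conditions after Benjamini-Hochberg adjustment over the 8 pairs (adjusted p from 0.00016 to 0.00947 for r and from 0.0003 to 0.0345 for rho). Fosb gave r = 0.29 and rho = 0.20 (permutation, adjusted p = 0.318 and 0.469). The permutation moved rats singly, as if those on the same array were independent.

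Without the 2 rats farthest from the median of Fos, BYA replicate 3 and BYS replicate 3, r fell to between 0.63 (Arc) and 0.91 (Junb) for the 7 and to 0.18 for Fosb. The rats of 1 array are not independent, so the same r was taken over the means of the 11 arrays and over the differences within the 9 arrays with both rats. Over array means it lay between 0.86 and 0.98 for the 7 members and at 0.60 for Fosb. Within arrays it lay between 0.49 (Arc) and 0.75 (Egr4) for the 7 and at −0.49 for Fosb, given as a description of 9 differences with no test. Over all 28 pairs of members without Fosb, r ranged from 0.65 to 0.94 with a median of 0.81, given as a description. The mean log2 level of the astrocyte markers had r = 0.63 with the mean standardized level of the members over the same deviations, the pituitary markers 0.50, the choroid plexus markers −0.44 and the arcuate markers 0.41, and their part was not tested.

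**Figure D4:**
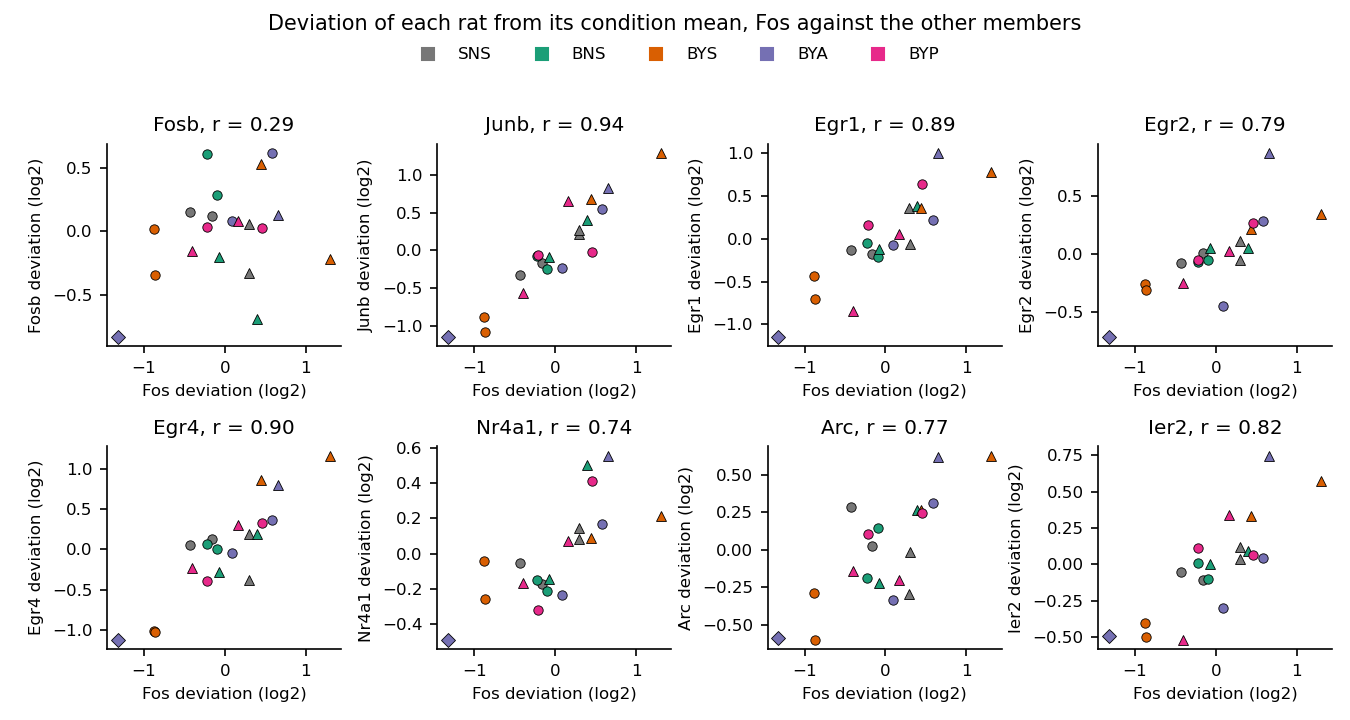
Deviation of each rat from its condition mean (log2 scale, dye effect removed), Fos on the x axis and each other member on the y axis. Colours are conditions, circles replicates 1 and 2, triangles replicates 3 and 4, and the diamond BYA replicate 3. The points rise together in 7 panels (r from 0.74 to 0.94), and the panel of Fosb has r = 0.29.

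The genes with levels most like those of the 9 members included chemokines, the cytokine gene Il1b and other early response genes. With condition means kept, the 5 highest correlations with the mean standardized level of the members over the 20 samples were those of Ccl2 (r = 0.97), Il1b (0.94), Ccl7 (0.93), Plau (0.93) and Csrnp1 (0.93). Ccl2 and Ccl7 are chemokines that draw monocytes, Il1b is interleukin 1 beta, Plau is the urokinase plasminogen activator, and Csrnp1 is an immediate early nuclear protein. With condition means removed, the 10 highest were Ccl2 (0.96), Csrnp1 (0.93), Plau (0.93), Dusp5 (0.93), Cebpd (0.92), Ccl4 (0.92), Ccl7 (0.91), Nr4a3 (0.87), Atf3 (0.87) and Ripk3 (0.87). Csrnp1, Nr4a3 and Atf3 are themselves early transcription regulators and Dusp5 a phosphatase that ends ERK signalling. Cebpd is a transcription factor of the acute phase, Ccl4 a chemokine and Ripk3 the kinase of necroptosis. These correlations select the highest of all genes and are given without a test.

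Ccl2 shows how close the likeness was. Its log2 level was 7.36 to 7.46 in SNS, where it was well above background in no rat, and 7.40 to 7.63 in BNS. It was 7.42, 7.54, 10.79 and 10.32 in BYS, 11.33, 9.64, 7.46 and 11.99 in BYA and 11.01, 10.30, 12.04 and 9.51 in BYP. The BYS rats with high Fos were thus those with high Ccl2, and BYA replicate 3 was at the level of the controls. Its mean was at least 9.85-fold higher in BYP than in SNS and at least 6.46-fold higher in BYA, or 11.9-fold without BYA replicate 3. Ccl2, Il1b, Ccl7, Plau, Ccl4 and Fosl1 entered the analysis only through BYP, where they were high. Those other than Fosl1 were also picked for sharing the pattern of the members. The values of these genes are thus given with no test.

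Il1b was 7.53, 7.52, 8.55 and 8.39 in BYS, against 7.44 to 7.51 in BNS and 7.48 to 7.73 in SNS, and ranged from 8.31 to 9.05 in BYP. Its mean was higher in BYP than in BNS by 1.22 on the log2 scale and at least 2.17-fold higher than in SNS. Ccl4 was well above background in no SNS or BNS rat and its mean was at least 7.59-fold higher in BYP than in BNS. Cebpd, well above background in all 20 rats, was higher in BYP than in BNS by 2.76 ± 0.57 (adjusted p = 0.0218) and than in SNS by 3.43 ± 0.57 (adjusted p = 0.000269). The mean log2 level of the 5 microglial markers was 10.22 to 10.47 in BYP, 10.20 to 10.40 in BNS and 10.403 to 10.555 in SNS. Its r with the members over the deviations was −0.18. The mean joins genes of unlike direction: in BYP minus SNS limma called 1 of the 5 higher and 2 lower, beside 15.4% and 13.5% of all genes.

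**Figure D5:**
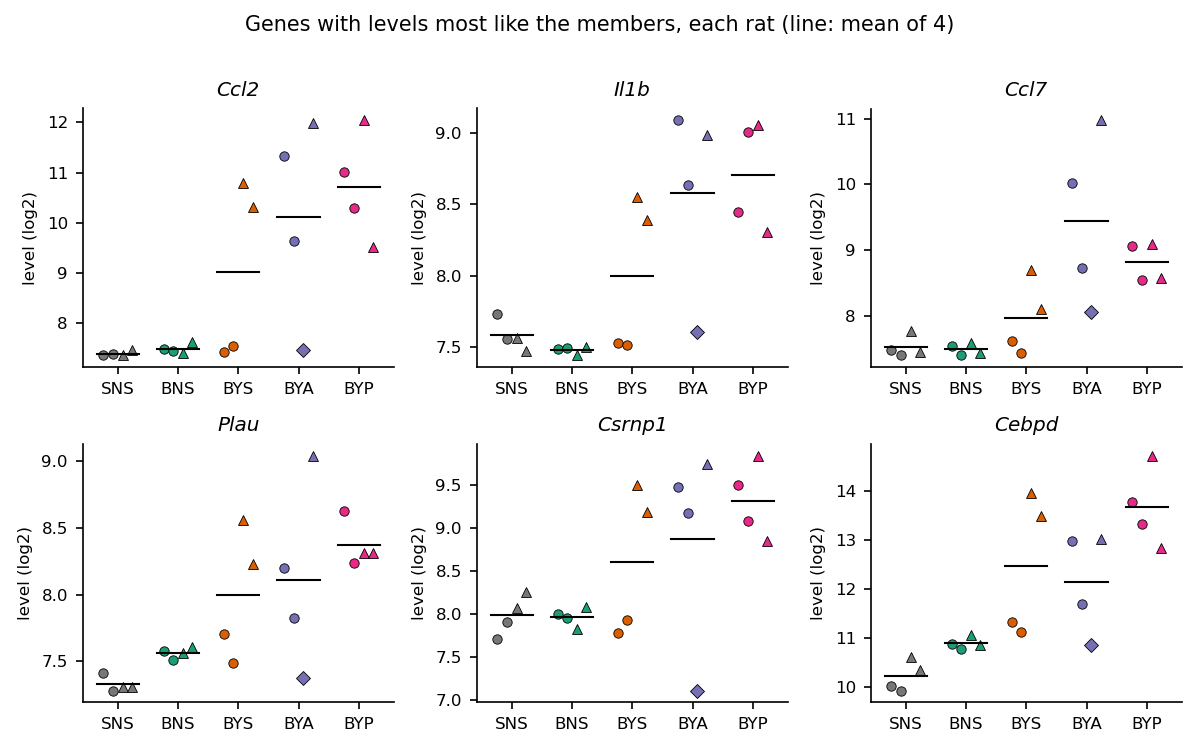
Log2 level in each rat of 6 of the genes most like those of the members, by condition, with the mean of 4 rats as a line (symbols as for the members). Ccl2 and Cebpd separate BYS replicates 3 and 4 from replicates 1 and 2 by 3.08 and 2.49 on the log2 scale.

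Other AP-1 and ATF genes were read through 7 genes, of which 5 were measured. Fosl1, the Fos relative with the widest range, was well above background in no SNS or BNS rat, and its log2 level was 7.39, 7.45, 10.73 and 10.61 in BYS. It was 7.37 in BYA replicate 3 against 8.59 or more in the other BYA rats, and 9.89, 9.46, 11.61 and 10.16 in BYP. Its mean was at least 7.59-fold higher in BYP than in BNS, at least 7.69-fold higher in BYP than in SNS and at least 3.27-fold higher in BYS than in SNS. Atf3, a stress-induced repressor, was called by limma in BYP minus SNS (1.67 ± 0.52, adjusted p = 0.0237), as was Maff, a small Maf protein (0.34 ± 0.10, adjusted p = 0.0199). Atf3 was well above background in 2 SNS rats and entered through BNS, BYS and BYP. Maff was well above background in 1 SNS and 2 BYP rats and entered through BYS alone. Both were dim in SNS, so these calls are no support for a difference. Jun, the main partner of Fos, differed between BYS and BNS by 0.99 ± 0.27, and was 11.43, 10.54, 11.63 and 12.04 in BYS and 9.99, 10.76, 10.56 and 10.36 in BNS. It was called in none of the 9 tested comparisons.

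Of 18 other immediate early regulators 15 were measured, and between BYP and BNS 2 were called higher and 0 lower, beside 0.65% of all genes. These were Crem, which encodes an inducible repressor of CREB targets (0.66 ± 0.14, adjusted p = 0.0278), and Nab2, a corepressor of the Egr proteins that they induce (1.30 ± 0.32, adjusted p = 0.0472). Nab2 was 10.14, 10.67, 11.84 and 12.14 in BYS and 11.47, 11.85, 11.73 and 11.82 in BYP. In BYP minus SNS 5 were called higher (Crem, Nab2, Csrnp1, Nr4a3 and Klf6) and 0 lower, beside 15.4% of all genes called higher and 13.5% lower. Nr4a3 was well above background in 1 SNS rat and Csrnp1 in 2. Both entered the analysis through BNS, BYS and BYP and were higher in BYS and BYP than in SNS, so their calls are no support for a difference. Crem was also called higher in BYS than in SNS (0.50). Klf4, a zinc finger factor, was called higher in BYS and BYA than in SNS (0.71 and 0.67, the latter 0.80 without BYA replicate 3). Per1, a clock gene, was called lower in BNS, BYS and BYA than in SNS, by −0.46, −0.39 and −0.46 (−0.30 for BYA without replicate 3). Per1 was well above background in 2 rats each of SNS, BNS and BYA and entered the analysis through BYS alone. These differences thus lie near background.

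Among 24 early effectors and feedback genes 18 were measured, and Gadd45b, a stress sensor that takes part in DNA demethylation, was the 1 called between BYP and BNS (1.69 ± 0.41, adjusted p = 0.0472). Its level was 8.66, 8.36, 10.35 and 10.35 in BYS and 8.62 to 8.82 in BNS. In BYP minus SNS 8 of the 18 were called higher and 1 lower, beside 15.4% and 13.5% of all genes. The higher genes were the MAP kinase phosphatases Dusp2, Dusp5, Dusp6 and Dusp14 (0.48 to 0.97), the kinases Sik1 (0.80) and Sgk1 (0.45), Gadd45b (1.38) and the Ras-like protein Rasd1 (1.01), and the lower gene was the antiproliferative Tob1 (−0.64). Dusp2, Dusp6, Dusp14, Rasd1 and Tob1 were also called in BNS minus SNS in the same direction, without spasms, and Homer1, a postsynaptic scaffold, was called lower there (−0.29). Dusp2 and Dusp5 were well above background in 1 SNS rat each. They entered the analysis through BNS and BYS (Dusp5 also BYP), where they were higher, so their calls against SNS are no support for a difference. Sik1 was called in BYA minus SNS as well (0.90, and 1.09 without BYA replicate 3).

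All 13 late activity-dependent genes named on the array were measured, and 0 were called in either direction by limma between BYP and BNS. Their median difference there was 0.08, against 0.0042 for all genes. In BYP minus SNS the neuropeptide precursor Vgf was called higher (0.49) and the activin subunit Inhba lower (−0.44), beside 15.4% and 13.5% of genes. In BYS minus SNS the neuropeptide gene Adcyap1 was called higher (0.59), beside 14.5% of all genes.

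Of 19 upstream factors and kinases 18 were measured, and in BNS minus SNS 4 were called higher, Elk4 (1.18), Mef2a (0.63), Elk3 (0.36) and Mkl1 (0.29), and 3 lower, Creb1 (−0.59), Crtc1 (−0.49) and Rps6ka2 (−0.39), beside 15.1% of all genes called higher and 13.5% lower. Elk3 and Elk4 are partners of SRF, Mkl1 is its actin-controlled coactivator, Mef2a is a calcium-regulated factor, Creb1 and its coactivator Crtc1 bind the CRE, and Rps6ka2 is a kinase below ERK. Elk4, Mef2a, Elk3 and Mkl1 were called higher in BYS, BYA and BYP than in SNS too, beside 14.5%, 15.8% and 15.4% of all genes. Crtc1 and Rps6ka2 were again called lower in BYS than in SNS, and 0 of the 18 were called lower in BYA. In BYP minus SNS Mef2c, another calcium-regulated factor, was called lower (−0.65), beside 13.5% of all genes. Crtc1 and Rps6ka2 were among the genes called there as well. Mef2a and Elk3 were well above background in 1 SNS rat each. They entered the analysis through BNS and BYS (Mef2a also BYA), where they were high, so their calls against SNS are no support for a difference. Limma called 0 of the 18 in BYA or BYP against BNS or BYS, and 0 between BYP and BYA.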

How the data were processed

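RNA from the arcuate nucleus of 20 female rats was hybridized to 11 two-colour rat arrays with 44254 spots on 6 slides, each channel being 1 sample. The authors deposited 1 file per array from Agilent Feature Extraction (version 11.5.1.1 in the file headers, 10.7.3.1 in the submitters' processing notes). Per the file headers, mean spot signals and local backgrounds are intensities that were not normalized, and processed signals are background-subtracted, dye-normalized intensities. Per the file headers, the flags used (well above background, outlier, saturated) hold scores of 0 or 1. The 82 columns of another series' channels were not used.

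Background was corrected with limma's normexp (offset 50) and quantile normalization of log2 values followed, over 42877 spots and 20 channels. Outlier values (1.18%) were left out, spots of a probe and kept probes of a gene were averaged, and 61.4% of probes matched a RefSeq symbol (GRCr8). The probes of the members are 60 bases long, none of their spots was saturated, and their place within the transcripts was not determined here. Groups came from the labels. R 4.3.3, limma 3.58.1 and statmod 1.5.0 were used, with 1 fit of all 20 samples, the dye as a covariate and Benjamini-Hochberg adjustment over all genes. The members and gene lists were chosen with earlier results of these data known. Correlations used 100000 permutations within conditions. Genes named are the members, listed genes that were called or were among the 5 largest differences between BYS and BNS, and those most like the members. The fit was tested on simulated data. Alternatives changed the background, scaling, filter, probe choice, outliers, dye term, blocks, test and samples. Whether the 4 rats of a condition came from separate litters is not given in the sources used here, so p-values measure the spread between these samples. A result for a gene of the upstream list is not reported here.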

Additional observations from a re-analysis of the deposited data

How the results depend on the processing

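The direction of all 15 called differences held under every alternative run, while many calls did not. For BYP minus SNS (7 members called), 2 were called with median scaling, 4 with the array as a random block and 4 by the methods' test after Benjamini-Hochberg adjustment. For BYA minus SNS (6 called), 3 were called with the scanner software's processed signals, with median or 75th percentile scaling, with probes well above background in all 20 samples and with only the 8 samples compared, and 2 and 0 by the methods' test at its own threshold and after adjustment, and with the slide as a random block 9 were called. The filter on all 20 samples left Fos, Egr2 and Egr4 untested, and Junb, Egr1 and Nr4a1 stayed called under it. The loess setting used only the 9 arrays with both channels, so BYA replicates 3 and 4 were left out of it. For BYP minus BNS (2 called), 0 were called with median or 75th percentile scaling, with probes well above background in all 20 samples, with the array block and by the methods' test after adjustment, 3 with loess, 6 with only the 8 samples, 7 by the methods' test at its own threshold and 8 with the slide block. For contrasts with 0 calls, BYA minus BNS gave 7 with the slide block and 1 by the methods' test at its own threshold, BYS minus SNS gave 1 with the processed signals, 2 with loess, 4 with the slide block and 2 by the methods' test, BYP minus BYA gave 1 with the slide block, and BNS minus SNS gave 1 with all probes kept. The correlation within blocks was 0.365 for arrays and −0.128 for slides, and a value below 0 narrows the errors.

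Leaving out 1 sample at a time gave 4 to 8 members for BYP minus SNS, 3 to 9 for BYA minus SNS, 0 to 3 for BYP minus BNS, 0 to 5 for BYA minus BNS, 0 to 1 for BYP minus BYA and for BYS minus SNS, and 0 to 0 for BNS minus SNS, BYA minus BYS and BYP minus BYS. The median difference of the members in BYS minus BNS ran from 0.27 to 0.73, the median r with Fos from 0.74 to 0.86, and the genes of other lists called in any tested comparison, 32 in the main setting, from 20 to 35. Those were 15 with processed signals, 16 with median and 17 with 75th percentile scaling, 18 with probes well above background throughout, 17 with the array block and 12 by the methods' test after adjustment. The filter on probes well above background throughout also left fewer of these genes to test. Of 66 uncalled differences of members, 20 changed sign under some alternative. Replicate numbers did not pair samples (mean correlation of deviations 0.0031, from −0.239 to 0.28), and with the replicate block 8 members were called in BYP minus SNS. Other scaling moved the median of all genes by up to 0.36 (BYP minus SNS, 75th percentile). The differences within arrays were examined after seeing the data. The causes of these changes were not tested, and signal over background limits Egr2 and Npas4.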
